A study of Mus musculus with 10 samples.

Results

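The response of control CD8+ T cells to stimulation of the T cell receptor was measured in 4 of the series' 10 RNA libraries, which came from 2 of its 5 mice. Each of these mice was Dusp2fl/fl-E8I-cre-/-: both copies of Dusp2 carried loxP sites and no cre was present, so the gene was left intact. CD8+ T cells of the spleen of each mouse were split between 2 cultures of 24 h. One culture received beads carrying antibodies to CD3 and CD28 (activated), the other was kept in the same medium without beads (rested). Control mouse 1 was male and control mouse 2 female. The 4 libraries were found by their column names in the deposited table, and all 57010 genes of the table were considered. The other 6 libraries, from 3 mice that carry E8I-cre as well as the floxed gene (cKO), entered the fit of the spread and 1 comparison of the responses. By its title, the study concerns DUSP2, the BAF chromatin remodelling complex and effector programming in these cells.

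CD3 transmits the signal of the T cell receptor and CD28 is the main co-stimulatory receptor, so beads that bind both stand in for an antigen-presenting cell. The signal runs through calcium and NFAT, MAP kinases and AP-1, and NF-kB. A resting T cell is small, circulates through lymphoid organs and is kept quiescent by an active transcription programme. In the first day of stimulation it grows, raises protein synthesis and metabolism, displays new receptors and prepares for its first divisions.

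The control libraries held 57603009 to 65135435 counts, within the range of the series (51203786 to 65135435). A count of 3 was used as the floor for a gene near 0. By unscaled library totals it corresponded to between 0.0461 and 0.0521 CPM in them. CPM are counts scaled to a common library total, and 18966 genes with enough counts were tested. The labelled cell type was checked against its markers. Cd8a stood at 624 and 655 CPM at rest and 512 and 577 CPM after activation, while Cd4 never passed 0.719 CPM. Of 11 CD8 T cell markers 2 rose and 7 fell, and their sum went from 4461 and 4743 CPM to 4175 and 4394 CPM. Of 13 CD4 and regulatory T cell markers 8 rose and 1 fell. Their sum went from 87.6 and 64.7 CPM to 507 and 550 CPM, of which Il2ra alone reached 355 and 419 CPM. The part of CD4 T cells in this rise was not tested. Of 15 B cell markers 7 were tested, 3 fell and 0 rose. These 3 were Ighm (275 and 337 CPM at rest, 223 and 261 CPM activated), Cd79b (4.13 and 5.46 CPM, then 2.21 and 2.34 CPM) and Igkc (5.18 and 1.40 CPM, then 0.468 and 0.257 CPM), whose call ended with either control mouse left out (adjusted p = 0.264 without mouse 1 and 0.125 without mouse 2 in edgeR). Cd79a, the partner of Cd79b in the B cell receptor, stayed at or below 0.80 CPM and was not called. The part of B cells in the results was not tested. Of 17 myeloid markers 7 were tested, 1 rose and 0 fell. These 7 summed to 12.8 and 12.6 CPM at rest and 16.4 and 15.3 CPM activated. Among the 17, 3 were at 0 in all 4 libraries. Of 10 erythroid and platelet markers 7 were at 0. Of 18 NK and innate-like markers 17 were tested, 6 rose (5 of them at least 2-fold) and 2 fell. The 17 summed to 418 and 305 CPM at rest and 555 and 483 CPM activated. Most of this sum was Il2rb, an interleukin receptor chain that CD8+ T cells express as well. The part of NK and innate-like cells in these rises was not tested. CPM are relative to a scaled library total. Fewer cells of a type and less RNA per cell thus cannot be told apart, and a change in RNA per cell is not seen.

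Activation changed the level of 10631 genes, 56.1% of those tested. In edgeR's quasi-likelihood fit, 5399 genes were higher after activation (28.5% of those tested) and 5232 were lower (27.6%), at a Benjamini-Hochberg adjusted p below 0.05, the threshold for all statements that a gene rose or fell. At least 2-fold changes were found in 2487 genes that were higher (13.1%) and 1649 that were lower (8.69%). Counts over gene lists below are to be read beside these shares. The direction was the same in each mouse for 10628 of the 10631 changed genes, and for 10525 of them the rested and activated libraries did not overlap. Both counts come from the libraries that gave the calls, so neither is an independent check. With 2 libraries a side, a lack of overlap was common: 76.8% of all genes tested showed it. Over the 10371 genes that averaged 5 CPM or more, the log2 ratios of the 2 mice correlated at 0.976 across genes, which are not independent replicates, and differed by a median of 0.13 against a median size of change of 0.45. Without control mouse 2 the lower genes were 3331 and those at least 2-fold lower 1042.

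**Figure D1:**
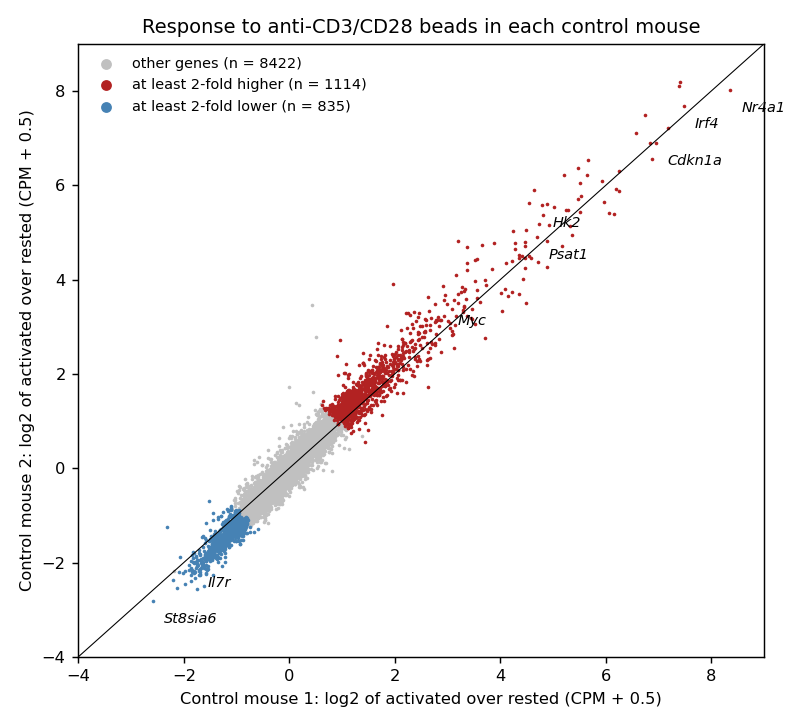
Each point is a gene that averaged 5 CPM or more; the axes give the log2 ratio of activated over rested CPM (plus 0.5) in control mouse 1 (x) and control mouse 2 (y), and the line marks equal ratios. The 1114 genes at least 2-fold higher (red) and the 835 at least 2-fold lower (blue) lie along the line, and the rises reach much further from 0 than the falls.

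Rises were far larger than falls. Among changed genes, 1049 rose by at least 2 on the log2 scale and 206 fell by as much. At a size of 3 the numbers were 558 and 30, and at a size of 6 they were 164 and 3. The genes at least 2-fold higher took 4.20% and 4.14% of all counts in the rested libraries of mice 1 and 2 and 12.9% and 14.2% in the activated ones. The genes at least 2-fold lower went the other way, from 13.7% and 14.0% to 6.35% and 5.42%. They differed in level beforehand: the median gene that rose at least 2-fold stood at 1.14 CPM at rest, and the median gene that fell at least 2-fold at 7.86 CPM, against 7.53 CPM over all genes tested. Counts were also spread over more genes. The most abundant genes that together held 50% of the counts numbered 896 and 910 in the rested and 1045 and 1047 in the activated libraries.

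**Figure D2:**
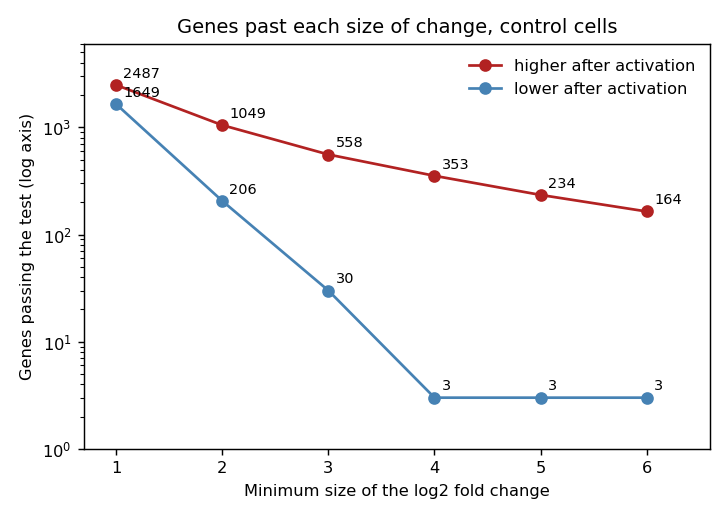
Number of genes passing the test (y, log axis) whose log2 fold change is at least the size on the x axis, higher (red) or lower (blue) after activation of control cells. The 2 lines start at 2487 and 1649 genes and part to 164 and 3 at a size of 6.

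Transcription factors switched on by the T cell receptor were among the largest responses. Nr4a1, an orphan nuclear receptor used as a reporter of receptor signals (chromosome 15, positions 101152150 to 101172676 in mm39), stood at 2.23 and 3.41 CPM in the rested libraries of mice 1 and 2 and at 900.1 and 1009 CPM in the activated ones, 8.42 higher on the log2 scale with an SE of 0.12 and an adjusted p of 4.45e-14 in edgeR. Irf4, which scales effector differentiation with signal strength (chromosome 13, positions 30933209 to 30950959), rose from 5.63 and 6.05 CPM to 1092 and 1337 CPM (7.70, SE 0.17). These 2 genes, scarce at rest, were among the 8 with the largest rise in CPM. Egr3, an early growth response factor, went from 1.22 and 1.58 CPM to 200.5 and 195 CPM, and Nr4a2, a relative of Nr4a1, from 0.772 and 0.940 CPM to 50.2 and 50.1 CPM. Of 26 such factors tested, 22 rose and 2 fell, with a median log2 fold change of 3.35, where the median over all genes tested was -0.002. Fosl1, an AP-1 subunit, rose from 0.120 and 0.142 CPM to 27.8 and 27.4 CPM. The AP-1 subunits Jun (27.6 and 50.1 CPM at rest, 48.7 and 48.0 CPM activated) and Jund (109 and 162 CPM, then 133 and 154 CPM) were not called, and for these the rested libraries differed more between mice than the activated ones. Jun was called without mouse 2 (0.83, adjusted p = 0.00935 in edgeR). Nfkb1, the gene of the NF-kB subunit p50, rose from 214 and 218 CPM to 892 and 1006 CPM (2.13, SE 0.07), and it was among the 8 genes with the largest gain in CPM.

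Genes that restrain receptor signals rose with them. Dusp2, the phosphatase of MAP kinases that the study is about (ENSMUSG00000027368, chromosome 2, positions 127178079 to 127180296), stood at 87.8 and 97.4 CPM at rest and at 292 and 299 CPM after activation, 1.67 higher on the log2 scale with an SE of 0.08 and an adjusted p of 5.11e-09 in edgeR. It was therefore already well above the floor in cells that had met no beads. Of 28 feedback regulators tested, 18 rose and 6 fell (median 0.99). The largest rise was that of Spry1, an inhibitor of the Ras and MAP kinase pathway, from 0.360 and 0.319 CPM to 42.5 and 61.0 CPM (7.23, SE 0.22). Cish, a SOCS family protein that dampens receptor and cytokine signals, rose from 2.23 and 3.60 CPM to 45.9 and 56.3 CPM. Dusp6, a cytoplasmic phosphatase of ERK, rose from 5.97 and 7.33 CPM to 26.7 and 30.3 CPM. Dusp1, another MAP kinase phosphatase, was not called (26.3 and 38.2 CPM at rest, 33.0 and 36.8 CPM activated), so the members of this family did not move together. Nfkbid, a nuclear inhibitor of the NF-kB family, rose from 32.4 and 37.9 CPM to 209 and 223 CPM. Rgs16, which switches off G proteins, was near the floor at rest (0.480 and 0.550 CPM) and reached 142 and 156 CPM. Socs3 moved the other way (55.9 and 47.8 CPM, then 29.9 and 20.9 CPM).

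RNA of most secreted products tested rose, many by large factors from very low levels, and secretion was not measured. Of 23 cytokines and chemokines tested, 18 rose and 3 fell, with a median log2 fold change of 5.10, the highest of the 40 lists in the main fit. Their summed level went from 808 and 756 CPM to 1140 and 1041 CPM. Tnf, the inflammatory cytokine, rose from 1.94 and 2.91 CPM to 63.5 and 70.2 CPM (4.81, SE 0.15), and Lta, its neighbour and relative, from 5.78 and 7.91 CPM to 76.9 and 96.0 CPM. The chemokines Ccl3 (0.755 and 0.284 CPM, then 57.0 and 51.2 CPM) and Ccl4 (1.49 and 0.621 CPM, then 88.6 and 92.2 CPM) were at a similar level after activation. RNA of the defining cytokines interferon gamma and interleukin 2 stayed low in absolute terms. Ifng reached 6.36 and 5.65 CPM from 0.154 and 0.213 CPM (5.03, SE 0.33), and Il2 reached 2.84 and 4.92 CPM from 0.0515 and 0.248 CPM (4.70, SE 0.37, and 5.74 without mouse 2). Tnfsf11, the ligand RANKL, had 3 counts over both rested libraries and 786 over both activated ones, a ratio of 249.6 per library total with an exact 95% interval of 85.1 to 1213 that covers counting error only. Tnfsf14, the ligand LIGHT, rose from 0.532 and 0.248 CPM to 29.9 and 20.6 CPM. Ccl5, a chemokine of memory and effector cells, fell in each mouse, from 206 to 71.2 CPM in mouse 1 and from 57.4 to 16.8 CPM in mouse 2, so mouse 1 activated stayed above mouse 2 rested and the groups overlapped. This call ended without the sex term (adjusted p = 0.249) and in the 4 control libraries alone without a block (adjusted p = 0.436 in edgeR). Fasl (2.83 and 1.63 CPM at rest, 4.28 and 4.65 CPM activated) was not called, though it was with the mouse as a block (adjusted p = 0.0111 in edgeR).

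Genes of the killing machinery changed less uniformly. Of 17 genes of cytotoxic molecules tested 5 rose (29.4%) and 3 fell (17.6%), with a median of 0.14. The rises were near the 28.5% of all genes tested, and the falls below the 27.6%. Srgn, the proteoglycan that packs granules, rose from 168 and 170 CPM to 492 and 524 CPM. Gzmb, the protease granzyme B, went from 0.223 and 0.337 CPM to 1.69 and 4.11 CPM (3.31, SE 0.54) and remained scarce. Prf1, which forms pores in target cells, was not called, at 38.1 and 36.6 CPM at rest and 36.1 and 35.1 CPM activated. Klrd1, a chain of the CD94 receptor, fell from 216 and 212 CPM to 82.9 and 62.1 CPM.

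RNA of some cytokine receptors rose while that of others fell, and receptor protein at the surface was not measured. Among 24 cytokine receptor genes 9 rose and 13 fell (median -0.51). Il2ra, the chain that gives the interleukin 2 receptor its high affinity (chromosome 2, positions 11647618 to 11698004), rose from 1.60 and 0.940 CPM to 355 and 419 CPM (8.25, SE 0.33). Il7r, the receptor for the survival cytokine interleukin 7 (chromosome 15, positions 9505874 to 9530262), fell from 1639 and 1547 CPM to 488 and 369 CPM (-1.91, SE 0.15) and was among the 8 genes with the largest loss of CPM. Il6ra fell from 375 and 388 CPM to 116 and 107 CPM, Il10ra from 74.9 and 58.0 CPM to 27.0 and 17.9 CPM, and Il17ra from 549 and 560 CPM to 292 and 255 CPM. Jak1, a kinase that many of these receptors use, fell with them (1958 and 1878 CPM, then 971 and 876 CPM).

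Transcripts of co-stimulatory and of inhibitory receptors mostly rose. Of 18 co-stimulatory genes 13 rose and 2 fell (median 1.15), and of 18 inhibitory receptors and ligands 11 rose and 4 fell (median 2.21). Tnfrsf9, which encodes 4-1BB, rose from 1.53 and 1.01 CPM to 192 and 209 CPM (7.30, SE 0.21). Icos, a relative of CD28, rose from 43.0 and 41.9 CPM to 99.8 and 97.8 CPM. Cd274, the ligand PD-L1, rose from 25.8 and 25.4 CPM to 288 and 267 CPM (3.44, SE 0.09), and Pdcd1lg2, the ligand PD-L2, from 0.257 and 0.142 CPM to 33.3 and 33.3 CPM. Their receptor Pdcd1 (PD-1) was lower in level, at 1.84 and 1.93 CPM at rest and 16.5 and 21.1 CPM activated (3.31, SE 0.77), and its call ended without mouse 1 (adjusted p = 0.151) and without mouse 2 (adjusted p = 0.191 in edgeR). Lag3 reached 60.1 and 97.4 CPM from 1.13 and 0.816 CPM, and Cd160 reached 14.1 and 15.6 CPM from 0.189 and 0.213 CPM. Cd83, an activation antigen, rose from 0.412 and 0.444 CPM to 104 and 112 CPM. Entpd1, which encodes CD39, was at or below 1.42 CPM in every control library and was not called.

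Members of the receptor complex moved in either direction. Of 24 genes of the T cell receptor complex and its nearest kinases 9 rose and 12 fell (median -0.16), and 5 were at least 2-fold higher and 3 at least 2-fold lower. Cd69, the early activation antigen, rose from 21.0 and 26.5 CPM to 514 and 593 CPM (4.55, SE 0.10). Zap70, the kinase recruited to the receptor, rose from 162 and 172 CPM to 358 and 387 CPM, and Ptpn6, the phosphatase SHP-1, from 84.3 and 85.3 CPM to 245 and 270 CPM. Themis, an adaptor of receptor signals, fell from 186 and 174 CPM to 79.8 and 67.6 CPM. Cd3g, a chain of the complex, fell from 241 and 249.8 CPM to 179 and 175 CPM.

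**Figure D3:**
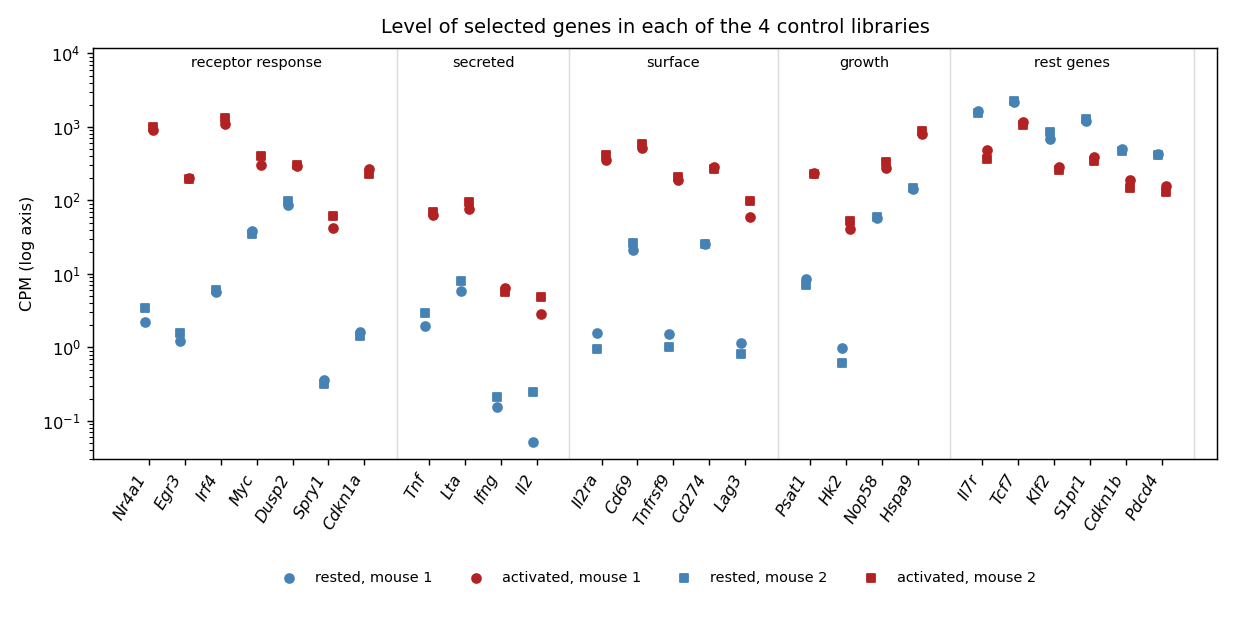
CPM (y, log axis) of 26 genes in the rested (blue) and activated (red) libraries of control mouse 1 (circles) and control mouse 2 (squares), grouped by role. For each of these genes the rested and activated libraries do not overlap, and those that rise start lower than those that fall, as Il2ra at 1.60 and 0.940 CPM and Il7r at 1639 and 1547 CPM do.

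MYC, a driver of cell growth, and the genes for making ribosomes rose together. Myc (chromosome 15, positions 61857240 to 61862223) rose from 38.3 and 34.8 CPM to 308 and 398 CPM (3.27, SE 0.18). Its partner Max was not called (122 and 120.0 CPM, then 119 and 120.0 CPM), and the opposing partners Mxd4 (138 and 150.1 CPM, then 54.2 and 48.6 CPM) and Mxi1 (36.1 and 39.2 CPM, then 18.2 and 13.7 CPM) fell. Of 43 ribosome biogenesis genes 42 rose and 0 fell, with a median log2 fold change of 1.62. Nop58, a core protein of the particles that methylate ribosomal RNA, rose from 58.0 and 59.5 CPM to 273 and 334 CPM. Gar1, of the particles that make pseudouridine, rose from 16.0 and 17.2 CPM to 71.4 and 89.8 CPM. Polr1a, the large subunit of RNA polymerase I, rose from 66.4 and 66.6 CPM to 198 and 226 CPM. Ncl, the nucleolar protein nucleolin, went from 676 and 596 CPM to 1665 and 2132 CPM, and Mdn1, an ATPase of the large subunit's assembly, from 282 and 256 CPM to 979 and 1087 CPM. Wdr12 alone of the list was not called (60.9 and 66.2 CPM, then 69.5 and 83.7 CPM), and with the mouse as a block it was (adjusted p = 0.0285 in edgeR). RNA for the proteins of the finished ribosome did not follow. Of 79 cytosolic ribosomal protein genes 21 rose, 16 fell and 42 were not called, with a median of -0.003. Rps2 showed the largest rise among them (364 and 398 CPM, then 723 and 866 CPM), and Rplp0 was not called (2535 and 2275 CPM, then 2312 and 2254 CPM).

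The motif CACGTG, read on both strands and known as the E-box that MYC and MAX bind, was searched for in RefSeq promoters of build GRCm38.p6, from 250 bases before to 50 after the start of a gene. Promoters were matched by symbol for 38 of the 43 biogenesis genes, and 9 of them (23.7%) held the motif. Of all 10837 RefSeq promoters of tested genes 10% held it, but these cover only 57.1% of the genes tested. That share and the like shares for other motifs describe the promoters at hand. They stand beside list shares as descriptions, and no list was tested against them. All 9 rose, with a median log2 fold change of 2.14, where the 29 without it had 1.60. The promoter of Nop2, a methyltransferase of ribosomal RNA that rose from 33.2 and 35.6 CPM to 145 and 187 CPM, is shown because it holds the motif in capitals, starting 60 bases before the start site (chr6:125131633-125131932, plus strand).
Nop2: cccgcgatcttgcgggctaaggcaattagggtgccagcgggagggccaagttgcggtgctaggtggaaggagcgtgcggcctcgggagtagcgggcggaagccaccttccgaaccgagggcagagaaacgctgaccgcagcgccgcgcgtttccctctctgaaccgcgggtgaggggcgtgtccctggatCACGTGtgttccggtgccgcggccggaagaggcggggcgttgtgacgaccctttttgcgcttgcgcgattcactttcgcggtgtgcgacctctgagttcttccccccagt
A match of letters is a description and shows no binding.

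Transcripts of most translation factors and of the enzymes that charge tRNAs rose as well. Of 25 initiation and elongation factors 20 rose and 3 fell (median 0.81). Eif3c, a scaffold of initiation, rose from 255 and 247 CPM to 946 and 968 CPM, and Eif4a1, the initiation helicase, from 248 and 252 CPM to 729 and 879 CPM. The elongation factors moved differently. Eef2, which moves the ribosome along, fell from 5695 and 5507 CPM to 3963 and 4021 CPM, and Eef1a1, which brings charged tRNAs and was the most abundant gene of the activated libraries, was not called (9011 and 8284 CPM, then 9106 and 9034 CPM). Of 19 aminoacyl-tRNA synthetases 18 rose and 0 fell (median 1.20). Eprs, the enzyme for glutamate and proline, rose from 148 and 149 CPM to 476 and 486 CPM, and Qars, for glutamine, was the one that was not called (111 and 114 CPM, then 112 and 123 CPM).

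The genes of amino acid uptake and synthesis formed a further group with almost uniform rises. Of 33 genes of amino acid transport, serine and folate-linked synthesis and related functions, 30 rose and 0 fell, with a median log2 fold change of 2.00. Psat1, an enzyme of serine synthesis, rose from 8.51 and 7.06 CPM to 234 and 225 CPM (4.89, SE 0.13). Slc3a2, the shared chain of the large amino acid carriers, rose from 159 and 158 CPM to 711 and 667 CPM, and Slc1a4, a carrier of small neutral amino acids, from 5.88 and 5.75 CPM to 55.6 and 50.9 CPM. Bcat1, which handles branched-chain amino acids (chromosome 6, positions 144939561 to 145021910), was near the floor at rest (0.515 and 0.160 CPM) and reached 108 and 119 CPM (8.38, SE 0.43, between 7.72 and 9.52 with either mouse left out). Slc38a2, a glutamine carrier, was not called (599.7 and 681 CPM, then 617 and 584 CPM).

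The motif TGATGNAA, read on both strands, is the element bound by ATF4, the factor of the amino acid response. Of 27 of these 33 genes with a promoter, 7 (25.9%) held it, and 2.19% of all these promoters did. The 7 were Asns, Chac1, Got1, Pycr1, Slc1a4, Slc7a11 and Trib3, each of which rose, as did 30 of the 33 list members. Their median log2 fold change was 4.27 where the others had 1.90. The list was chosen with earlier results known and holds members outside transport and serine or folate-linked synthesis, such as Chac1. These shares and medians are therefore descriptions and test no link to the motif. For the synthetases the same count is void, since 63.2% of the list had a promoter in the table. The promoters of Chac1, which degrades glutathione and rose from 0.480 and 0.550 CPM to 35.0 and 26.9 CPM, and Pycr1, which makes proline and rose from 0.549 and 1.15 CPM to 16.6 and 16.2 CPM, are shown for the motif in capitals. It begins 193 bases before the start site in Chac1 (chr2:119350992-119351291, plus strand, where the match is on the other strand) and 103 bases before it in Pycr1 (chr11:120643699-120643998, minus strand).
Chac1: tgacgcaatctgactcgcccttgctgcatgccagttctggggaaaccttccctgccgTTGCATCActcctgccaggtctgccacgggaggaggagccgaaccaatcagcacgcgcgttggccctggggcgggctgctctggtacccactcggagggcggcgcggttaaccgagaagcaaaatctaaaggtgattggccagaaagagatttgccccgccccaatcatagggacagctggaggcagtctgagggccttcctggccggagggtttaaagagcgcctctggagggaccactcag
Pycr1: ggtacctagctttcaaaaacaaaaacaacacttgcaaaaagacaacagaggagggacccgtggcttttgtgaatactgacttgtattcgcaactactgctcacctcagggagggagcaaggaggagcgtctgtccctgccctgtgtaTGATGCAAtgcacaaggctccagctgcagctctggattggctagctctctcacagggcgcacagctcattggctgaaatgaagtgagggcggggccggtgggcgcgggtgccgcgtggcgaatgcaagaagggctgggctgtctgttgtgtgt

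Most genes of sugar metabolism rose, and some related enzymes moved in opposite directions at the RNA level. Of 30 genes of glycolysis and the pentose phosphate pathway 20 rose and 6 fell (median 0.75). Hk2, the hexokinase of growing cells, rose from 0.995 and 0.621 CPM to 40.8 and 53.3 CPM (5.85, SE 0.41), while Hk1 fell from 143 and 138 CPM to 101 and 95.8 CPM. G6pdx, the entry enzyme of the pentose phosphate pathway, rose from 46.2 and 46.6 CPM to 112 and 126 CPM. Pdk1, which inhibits pyruvate dehydrogenase, fell from 285 and 326 CPM to 108 and 102 CPM. Slc16a1, a lactate carrier, rose from 32.7 and 31.5 CPM to 100.4 and 129.5 CPM.

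Mitochondrial genes encoded in the nucleus rose, while most of those encoded in the mitochondrion were not called. Of 38 nuclear genes of the respiratory chain 33 rose and 1 fell (median 0.53), and of 38 genes of the mitochondrial ribosome, protein import and citrate cycle 35 rose and 1 fell (median 0.92). Hspa9, the chaperone that pulls proteins in, rose from 141 and 147 CPM to 809 and 869 CPM (2.54, SE 0.07). Cycs, cytochrome c, rose from 13.7 and 13.6 CPM to 48.8 and 49.6 CPM, and Uqcrq, a subunit of complex III, from 20.5 and 22.9 CPM to 64.4 and 77.8 CPM. Of the 13 genes on mitochondrial DNA 1 rose and 1 fell, and the median of -0.25 became 0.03 without control mouse 1. mt-Co1, the most abundant gene at rest, fell from 9744 and 8354 CPM to 7048 and 6963 CPM (-0.37, SE 0.08). This call ended without control mouse 1 (adjusted p = 0.104). The rise of mt-Nd6 (6.91 and 4.24 CPM, then 7.64 and 11.8 CPM, 0.87) ended without control mouse 2 (0.15, adjusted p = 0.687).

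Nucleotide synthesis genes mostly rose, and those of lipid synthesis were divided. Of 25 nucleotide synthesis genes 21 rose and 2 fell (median 1.12). Umps, of pyrimidine synthesis, rose from 15.2 and 14.4 CPM to 84.0 and 106 CPM, and the salvage kinase Dck fell from 66.6 and 67.4 CPM to 29.1 and 28.0 CPM. Of 34 genes of cholesterol and fatty acid synthesis and transport 17 rose and 7 fell (median 0.29). Idi1, an enzyme of the cholesterol pathway, rose from 1.51 and 1.85 CPM to 10.6 and 16.7 CPM. Mylip, which marks the LDL receptor for degradation, fell from 93.8 and 87.7 CPM to 32.7 and 24.4 CPM.

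**Figure D4:**
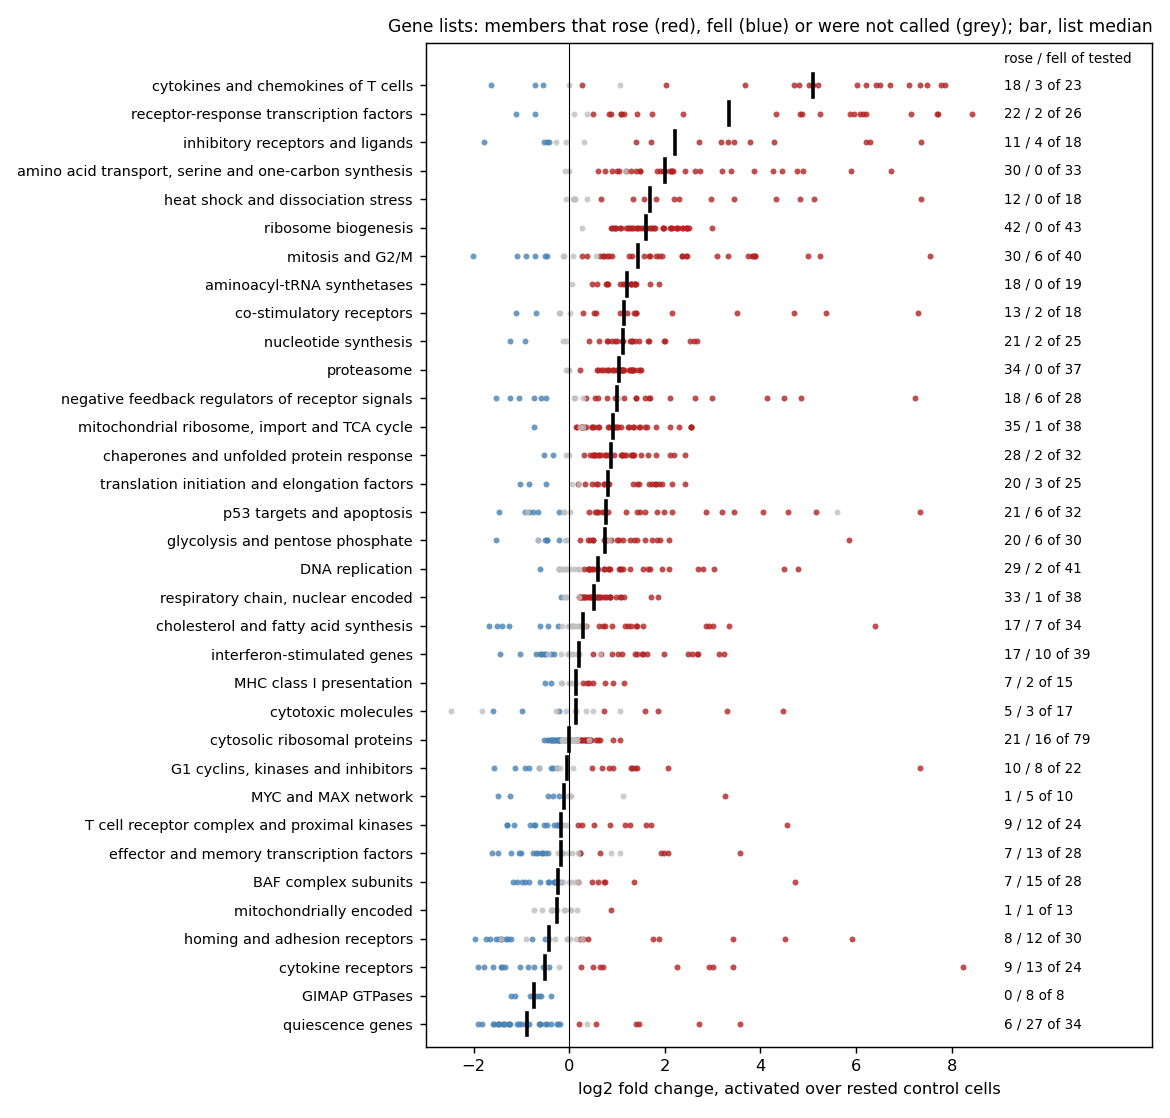
Log2 fold change (x, activated over rested control cells) of each tested member of 34 gene lists, one list per line, ordered by the list's median (black bar); red members rose, blue fell, grey were not called, and the numbers at the right count them. Cytokines and receptor-response factors head the plot with medians of 5.10 and 3.35, and quiescence genes end it with -0.89.

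The cell cycle genes measured at 24 h held a mixture of low and high levels. Of 41 DNA replication genes 29 rose and 2 fell (median 0.61). Pcna, the sliding clamp, rose from 83.9 and 89.1 CPM to 168 and 202 CPM. Genes that load or activate the replication helicase stood lower: Orc1 reached 4.90 and 8.03 CPM from 0.274 and 0.284 CPM, Cdc6 reached 5.15 and 8.35 CPM from 1.30 and 1.83 CPM, and Mcm10 reached 5.69 and 9.19 CPM from 0.274 and 0.248 CPM. In each of these 3 genes mouse 2 ended higher than mouse 1. Of 40 genes of mitosis and G2/M 30 rose and 6 fell (median 1.44), yet the list's summed level fell from 496 and 489 CPM to 346 and 351 CPM, and Cdc25b, a phosphatase that starts mitosis and the largest member at rest, fell from 249 and 232 CPM to 70.5 and 50.4 CPM. The members that rose stayed low: Ccna2, a cyclin of S phase and G2, reached 2.69 and 4.77 CPM, Mki67, the proliferation marker, 13.2 and 16.6 CPM, and Top2a, which untangles DNA, 19.2 and 27.8 CPM.

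Among 22 genes of the G1 phase 10 rose and 8 fell, with a median of -0.05 that became 0.02 with scaling by library totals. Cdkn1a, the inhibitor p21, had the smallest p in the comparison, rising from 1.63 and 1.42 CPM to 264 and 229 CPM (7.34, SE 0.10, adjusted p = 3.54e-14 in edgeR). Cdkn1b, the inhibitor p27, fell from 504 and 475 CPM to 187 and 146 CPM (-1.57, SE 0.12). Cdk6 rose from 24.7 and 18.4 CPM to 83.8 and 97.5 CPM, and cyclin E1, Ccne1, was not called (11.2 and 12.4 CPM, then 9.48 and 10.4 CPM).

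The motif TTTGGCGC, read on both strands and known as a site of E2F factors, was found in 6 of the 34 replication genes with a promoter (17.6%) and in 1.03% of all these promoters. Of these 6, 4 were called, and their median log2 fold change was 0.77 where the others had 0.61. A second form, TTTCCCGC, was also found in 6 of the 34 (17.6%, and 2.09% of all promoters), of which 3 were called, with a median of 0.45 where the others had 0.66. The list was chosen with earlier results known, so these shares and medians are descriptions and test no link to either form. The promoter of Mcm6, a subunit of the helicase that rose from 111 and 108 CPM to 134 and 172 CPM (0.47, SE 0.11, and 0.28 with adjusted p = 0.152 without mouse 2), is shown because it holds the motif at 2 places, 110 and 47 bases before the start site (chr1:128359656-128359955, minus strand).
Mcm6: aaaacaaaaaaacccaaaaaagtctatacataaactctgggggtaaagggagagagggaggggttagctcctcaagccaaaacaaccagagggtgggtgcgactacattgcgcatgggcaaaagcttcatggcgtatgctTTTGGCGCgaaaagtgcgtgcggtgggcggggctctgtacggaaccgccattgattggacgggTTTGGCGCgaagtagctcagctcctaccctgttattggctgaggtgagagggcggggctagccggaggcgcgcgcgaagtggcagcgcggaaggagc

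Genes of p53 and of protein quality control rose as well. Of 32 p53 targets and apoptosis genes 21 rose and 6 fell (median 0.77). Besides Cdkn1a these held Gadd45b (5.52 and 5.94 CPM, then 133 and 141 CPM), Aen (38.0 and 35.9 CPM, then 159 and 168 CPM) and Ccng1 (85.4 and 76.7 CPM, then 226 and 208 CPM), while Mdm2, the ligase that removes p53, was not called (115 and 124 CPM, then 113 and 110 CPM). Of 32 chaperones and genes of the unfolded protein response 28 rose and 2 fell (median 0.88). Hsp90ab1 gained more CPM than any other named gene (1510 and 1392 CPM, then 3863 and 4415 CPM), and Hspa5, the main chaperone of the endoplasmic reticulum, rose from 117 and 125 CPM to 484 and 559 CPM. Of 37 proteasome genes 34 rose and 0 fell (median 1.05). Psme2, a subunit of the activator PA28, rose from 112 and 114 CPM to 270.1 and 278 CPM. The 3 genes that were not called were Psmb8, Psmb9 and Psmb10, the catalytic subunits of the immunoproteasome (Psmb8 was at 163 and 160 CPM, then 161 and 148 CPM).

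Genes that also respond to handling and heat moved in the same direction. Of 18 heat shock and dissociation genes 12 rose and 0 fell (median 1.69), among them Atf3 (0.326 and 0.355 CPM, then 60.3 and 51.4 CPM), Fosb (1.18 and 1.40 CPM, then 36.9 and 35.8 CPM) and Hsph1 (94.6 and 75.0 CPM, then 395 and 378 CPM). The part of handling in the rises of chaperones and of receptor-response factors, with which the list shares members, was not tested.

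Interferon-stimulated genes divided. Of 39 tested, 17 rose (43.6%), 10 fell (25.6%, near the 27.6% of all genes tested) and 12 were not called (median 0.20). Those that rose included the GTPases Irgm1 (55.0 and 53.2 CPM, then 342 and 298 CPM, 2.56, SE 0.07), Gbp2 (60.5 and 51.9 CPM, then 392 and 335 CPM) and Gbp5 (10.0 and 9.35 CPM, then 85.9 and 82.9 CPM). Irf1 rose from 161 and 152 CPM to 419 and 395 CPM. Those that fell included Ifit2, which binds foreign RNA (80.3 and 86.5 CPM, then 31.3 and 29.9 CPM), and Oas2, an RNA sensor (1.05 and 5.07 CPM, then 0.719 and 1.98 CPM, with groups that overlapped). The 10 that fell were Ddx58, Ifi203, Ifi209, Ifit2, Ifit3, Irf7, Oas1a, Oas2, Trim30a and Usp18. Without mouse 2 the calls of Ifit3, Irf7, Oas1a, Oas2 and Usp18 ended (adjusted p = 0.177, 0.259, 0.552, 0.47 and 0.608 in edgeR), and without mouse 1 those of Ifit3 (0.102) and Oas1a (0.0538). Without the sex term the calls of Ifit3 (0.195), Oas1a (0.0524), Oas2 (0.372) and Usp18 (0.0779) ended. Those of Oas1a, Oas2 and Usp18 ended in limma on log2(FPKM + 0.5) too (0.0869, 0.13 and 0.0564), and that of Oas1a with scaling by library totals (0.0732) and in DESeq2 (0.0578). Ifngr1, a chain of the receptor for interferon gamma, fell (log2 fold change -1.41), and Cxcl10, a chemokine induced by interferon, rose from 0.635 and 1.19 CPM to 33.0 and 32.2 CPM.

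The promoter of Irgm1 is shown because it holds the motif GAAANNGAA, the element read by interferon regulatory factors and STATs, at 2 overlapping places 30 and 24 bases before the start site (chr11:48871371-48871670, minus strand). Of all these promoters 7.19% held this motif on either strand. A count over the interferon list is void, since 76.9% of its members had a promoter in the table.
Irgm1: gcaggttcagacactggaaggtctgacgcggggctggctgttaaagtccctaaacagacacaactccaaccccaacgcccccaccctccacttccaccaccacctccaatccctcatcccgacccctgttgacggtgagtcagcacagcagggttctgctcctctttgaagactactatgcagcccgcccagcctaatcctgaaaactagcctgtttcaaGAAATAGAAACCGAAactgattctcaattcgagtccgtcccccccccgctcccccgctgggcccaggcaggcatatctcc
The remaining counts over lists with enough promoters are descriptions as well and test no link to a motif. The AP-1 motif TGANTCA, in 5.12% of all promoters, was in 4 of 19 cytokine promoters (21.1%). There the median log2 fold change was 5.61 with it and 5.03 without. Among promoters of the quiescence genes described below it was in 0 of 30. The NF-kB motif GGGANNTTC, in 3.52% of all promoters, was in 5 of 19 cytokine promoters (26.3%), where the median log2 fold change was 5.20 with it and 5.56 without, and in 1 of 24 promoters of feedback regulators (4.17%), that of Nfkbia.

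Genes that present antigen were divided as well. Of 15 genes of MHC class I presentation 7 rose and 2 fell (median 0.15), and H2-K1, a classical class I heavy chain, was not called (2554 and 2932 CPM, then 2493 and 2356 CPM), but was without mouse 1 (-0.32, adjusted p = 0.0415 in edgeR).

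Genes that keep T cells at rest fell. Of 34 quiescence genes 27 fell and 6 rose (median -0.89). Klf2, the factor that maintains quiescence and homing, fell from 678 and 845 CPM to 282 and 263 CPM (-1.48, SE 0.16). Pdcd4, a brake on translation, fell from 433 and 414 CPM to 155 and 129 CPM (-1.58, SE 0.09), and Sesn1, which inhibits mTORC1, from 131 and 150.3 CPM to 52.7 and 48.9 CPM. Among the 6 that rose was Nfkbia, the inhibitor of NF-kB, which that factor itself induces (84.1 and 104 CPM, then 239 and 249.7 CPM). All 8 GIMAP GTPases, proteins that sustain lymphocyte survival, fell (median -0.73). Gimap3 fell from 1161 and 1363 CPM to 575 and 515 CPM.

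Of 28 transcription factors that govern effector and memory fates 13 fell (46.4%), 7 rose and 8 were not called (median -0.17). The rises (25%) were near the 28.5% of all genes tested. Tcf7, which marks naive and stem-like cells, fell from 2188 and 2267 CPM to 1179 and 1049 CPM and stayed abundant. Klf3 fell from 530 and 544 CPM to 185 and 167 CPM. Zeb2, of terminal effectors, rose from 0.635 and 0.550 CPM to 8.35 and 5.93 CPM, and Bcl6, a repressor active in memory precursors, from 20.7 and 19.2 CPM to 80.3 and 71.7 CPM.

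Homing and adhesion genes were divided. Of 30 tested 12 fell (40%), 8 rose (26.7%, near the 28.5% of all genes tested) and 10 were not called (median -0.42). S1pr1, the receptor by which T cells leave lymphoid organs, fell from 1189 and 1264 CPM to 394 and 340 CPM (-1.75, SE 0.15). Itga4 fell from 714 and 728 CPM to 260.2 and 241 CPM. Ccr7, which guides cells into lymph nodes, did not fall with S1pr1: it rose from 322 and 349 CPM to 409 and 468 CPM (0.39, SE 0.09). Ccr4, a chemokine receptor of activated cells, rose from 0.446 and 0.337 CPM to 9.27 and 8.51 CPM.

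The largest falls by ratio and by level were in different genes. St8sia6, a sialyltransferase (chromosome 2, positions 13655832 to 13798875), fell from 28.7 and 49.0 CPM to 4.38 and 6.49 CPM (-2.82, SE 0.28). This was the lowest log2 fold change among the genes named for the size of their fall, which had to average at least 5 CPM in a group. Scarcer genes fell further, Igkc among them (-3.09). Rflnb, an actin regulator, fell from 437 and 437 CPM to 100.1 and 74.6 CPM (-2.34, SE 0.28), and Tet1, a DNA demethylase, from 7.91 and 6.14 CPM to 1.42 and 1.57 CPM. By loss of CPM, Arhgap45, a GTPase-activating protein, fell from 2950 and 3162 CPM to 1206 and 1023 CPM, and Slc12a7, a potassium and chloride carrier, from 1549 and 1649 CPM to 473 and 365 CPM (-1.95, SE 0.18). At the other end, the highest log2 fold change under the same limit was that of Lad1, an anchoring filament protein of epithelia (chromosome 1, positions 135746336 to 135761080), which rose from 0.206 and 0.0532 CPM to 118 and 152 CPM (9.98, SE 0.27, between 9.16 and 11.42 with either mouse left out). Tnnt2, the cardiac troponin T gene, lies next to it on chromosome 1 (positions 135764092 to 135779998) and rose from 0.154 and 0.0355 CPM to 29.9 and 29.0 CPM (8.23, SE 0.36, between 7.59 and 9.59 with either mouse left out).

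Subunits of the BAF complex, which the study's title names, mostly moved in small steps. Of 28 tested 15 fell (53.6%) and 7 rose (25%, near the 28.5% of all genes tested), with a median of -0.23. Bcl11b, a T cell factor that joins the complex, fell from 267 and 279 CPM to 142 and 135 CPM, and Smarca2, one of its alternative ATPases, from 243 and 232 CPM to 117 and 94.7 CPM. Dpf1, of the neuronal form, had the largest ratio at a level no higher than 0.301 CPM, and its call ended without mouse 2 (adjusted p = 0.0528 in edgeR). Phf10, of the PBAF form, rose from 54.2 and 58.9 CPM to 147 and 142 CPM. Dpf2, of the canonical form, was not called (105 and 102 CPM, then 108 and 103 CPM).

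Related genes can be set side by side only per length, and for this the deposited FPKM of each library were used. Il7r stood at 342 and 325 FPKM and Il2ra at 0.272 and 0.161 FPKM in rested cells of mice 1 and 2, and after activation they were close, at 108 and 80.5 FPKM against 64.0 and 74.5 FPKM. Tcf7 and Irf4 drew together likewise, from 706 and 735 FPKM against 1.12 and 1.21 FPKM to 401 and 353 FPKM against 229 and 277 FPKM. Mxd4 and Myc changed order in each mouse: Mxd4 was above Myc at rest (15.8 and 17.3 FPKM against 13.7 and 12.5 FPKM) and far below it after activation (6.56 and 5.82 FPKM against 116 and 149 FPKM). The survival genes Bcl2 (10.4 and 7.26 FPKM, then 13.9 and 10.5 FPKM) and Bcl2l1 (1.69 and 1.54 FPKM, then 12.7 and 18.9 FPKM) changed order in mouse 2 alone. Eif4ebp1, a repressor of cap-dependent translation, rose from 5.76 and 5.96 FPKM to 35.0 and 30.8 FPKM, and its relative Eif4ebp2 fell from 94.6 and 90.3 FPKM to 55.3 and 52.4 FPKM.

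**Figure D5:**
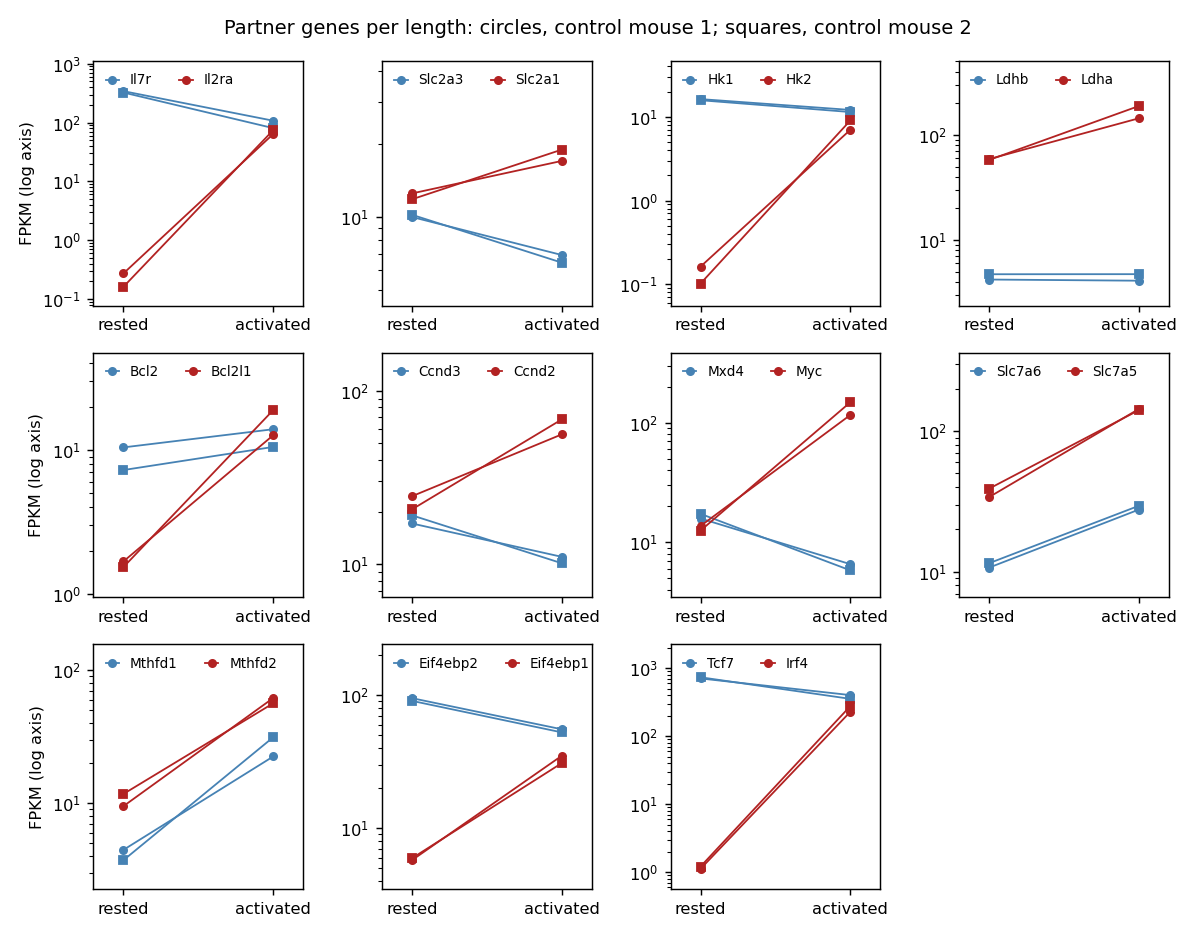
FPKM (y, log axis) of 11 pairs of related genes in rested and activated libraries; blue is the gene named first in each panel, red the other, circles are control mouse 1 and squares control mouse 2. Il7r and Il2ra, and Tcf7 and Irf4, start far apart and end close together, and the lines of Mxd4 and Myc cross.

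Some genes were at or near 0 in one state. Of the genes that rose, 258 had 3 counts or fewer over both rested libraries and 111 of these had 0, while 30 genes that fell had 3 counts or fewer over both activated libraries. A1cf, an RNA-editing cofactor of liver and gut, had 0 counts at rest and 394 after activation, at least 125-fold higher with a floor of 3 counts over the group. Aldh1l2, a mitochondrial enzyme of folate metabolism, had 0 and 347 counts, at least 110-fold higher. Pclaf, a partner of PCNA, had 2 and 608 counts, a ratio of 290 per library total (exact 95% interval 79.8 to 2397).

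Classes of RNA differed in their balance of rises and falls, where 28.5% of all genes tested rose and 27.6% fell. Of 2426 long non-coding RNA genes tested 637 fell and 345 rose (median -0.24). Their falls were near the share over all genes and their rises below it. They made up 24.1% of the genes at least 2-fold lower against 12.8% of all tested. Of 1636 processed pseudogenes 354 rose and 86 fell, each below the share over all genes. Such copies can share reads with their parent genes. Of 266 small nucleolar RNA genes 162 rose and 3 fell (median 0.98). Many lie inside the introns of other genes and the libraries were made from mRNA, so their counts and those of their host genes cannot be told apart.

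The 2 mice differed in some genes before any stimulation. Cd44, a marker of memory and activated cells, stood at 39.3 CPM in rested cells of mouse 1 and 14.6 CPM in those of mouse 2, and at 105 and 81.8 CPM after activation (1.88, SE 0.47). Its call ended without mouse 1 (2.49, adjusted p = 0.0677 in edgeR) and without mouse 2 (1.42, adjusted p = 0.207). Ccl5 was 206 against 57.4 CPM at rest, Eomes, a factor of memory cells, 25.8 against 12.4 CPM (its response, not called, was with the mouse as a block, adjusted p = 3.98e-05 in edgeR), and Klrc1, an NK receptor gene found on memory CD8+ cells, 6.28 against 1.12 CPM. Klrc1 rose in each mouse (to 22.7 and 6.84 CPM), with a call that ended without mouse 2 (adjusted p = 0.0622). Sex differs between these mice, so sex and animal cannot be told apart here. The changed genes with the largest gap between the mice's responses included Acot7, a thioesterase, which rose from 22.2 to 43.8 CPM in mouse 1 and from 8.23 to 56.9 CPM in mouse 2 (1.79, 2.79 without mouse 1, and 0.99 with adjusted p = 0.304 without mouse 2), and Anxa2, a membrane-binding protein, from 18.4 to 34.9 CPM and from 9.28 to 50.5 CPM (1.66, 2.44 with adjusted p = 0.0613 without mouse 1, and 0.93 with adjusted p = 0.364 without mouse 2). With the mouse as a block these calls ended as well, at adjusted p = 0.0736 for Acot7 and 0.0651 for Anxa2 in edgeR. Dtl, which acts in DNA replication, rose from 0.463 to 8.40 CPM in mouse 1 and from 0.142 to 17.7 CPM in mouse 2.

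Whether the response depended on Dusp2 was tested as the difference between the responses of control and cKO cells. In edgeR 0 of 18966 genes were called (0%), 519 (2.74%) had an unadjusted p below 0.05, and the smallest adjusted p was 0.248, reached by Dusp2 and by 1 predicted gene. For Dusp2 the log2 fold change was 1.67 in control and 1.00 in cKO cells. DESeq2 called 3 genes and limma on FPKM called 0. Of the 4136 genes changed at least 2-fold in control cells, 4104 had the same sign in cKO cells. Over all 10371 tested genes that averaged 5 CPM or more, changed or not, the 2 sets of log2 fold changes correlated at 0.991. This correlation is across genes and within 1 fit that shares a sex term. With 2 control mice, a p that misses the threshold does not show that the responses were alike.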

How the data were processed

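Gene counts and FPKM of 10 libraries were deposited by the authors in 1 table of 57010 genes. Per the labels' protocols, each library was prepared from 100 ng of total RNA by an mRNA protocol that keeps strand. The submitters' processing notes name mm39, Subread, FastQC and MultiQC, and whether strand was used in counting is not given in the sources used here. The deposited FPKM equal the deposited counts rescaled by length and library total (largest relative deviation 9.4e-07) and were used only to compare genes and as an alternative. Libraries were grouped by the labels, and no per-sample column was left out. For cKO mouse 3 the titles conflict with its other labels and were not followed. The library grouped as activated cKO is titled rested cKO. That grouped as rested cKO is titled an activated floxed control.

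Counts were fitted with edgeR 4.0.16 in R 4.3.3 (quasi-likelihood test, TMM scaling, default low-count filter by group, robust fit, 1 mean for each of 4 groups plus sex) over all 10 libraries, with Benjamini-Hochberg adjustment over 18966 genes and a threshold of 0.05. The SE was taken from the fold change and its F statistic. The fit left 5 residual degrees of freedom. Its p-values rest on the spread between libraries within the groups of both genotypes, and they do not measure the spread of the response between mice. The rested and activated libraries of a number come from 1 animal, so they are paired, which the main fit leaves out. The correlation of what was left after removing each group's mean was 0.36 for the control mice. The fit was tested on simulated data with 50 genes changed at each size. It recovered 24 at 1.5-fold, 32 at 2-fold, 45 at 4-fold and 47 at 8-fold, and 13 of its 161 calls were false. Far fewer genes changed there than in the data, and the libraries were drawn independently, so the pairing was not simulated. Alternatives were other scalings and filters, the mouse as a block, DESeq2 1.42.0, limma 3.58.1 on log2 FPKM, and leaving out each mouse.

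The naming rule took Dusp2, the 12 highest and 12 lowest log2 fold changes and the 8 largest rises and 8 largest falls in CPM among changed genes that averaged at least 5 CPM in a group, did not overlap between states and were not predicted genes or receptor segments, up to 4 members per list with the smallest p and up to 2 that were not called, the 6 genes that differed most between mice, and the pairs. Any gene outside that rule was picked with its values known. The 40 lists and their members were chosen with earlier results of these data known, so their counts are descriptions. Promoter sequences and positions came from RefSeq (GRCm38.p6), and 10837 of the tested genes (57.1%) had one. The other gene positions are those of the deposited table (mm39). Motifs were searched on both strands. Results for a few genes are not reported here.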

Additional observations from a re-analysis of the deposited data

How the results depend on the processing

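No gene named in the report that passed the test reversed under any alternative run. The main counts were 5399 higher, 5232 lower, 2487 at least 2-fold higher and 1649 at least 2-fold lower. Requiring 5 CPM in 2 libraries left 10957 genes, with 1336 at least 2-fold higher and 862 lower. limma on log2(FPKM + 0.5), a scale that shrinks low genes, gave 1593 and 737. Testing against a 2-fold change instead of 0 gave 1361 and 531. With each mouse left out in turn, the higher genes ranged from 3650 to 5374, the lower from 3331 to 5272, those at least 2-fold higher from 1833 to 2472 and those at least 2-fold lower from 1042 to 1651; each lowest value came without control mouse 2, a fit in which the remaining control mouse takes its spread from the cKO groups. With the mouse as a replicate block over all 10 libraries the counts were 5245, 5107, 2446 and 1631, and among named genes it changed only the calls of Acot7, Anxa2, Eomes, Fasl and Wdr12. The difference in response between genotypes, 0 genes, became 39 with no low-count filter, 3 with DESeq2 and between 0 and 3 with a mouse left out (3 without cKO mouse 3, whose titles conflict with its other labels). The causes were not tested. Calls of named genes ended without the sex term for 9 (Bcl2, Ccl5, Ifit3, Ighm, Klrc1, mt-Nd6, Oas1a, Oas2 and Usp18), in the 4 control libraries without a block for 13 (Acot7, Anxa2, Asns, Bcl2, Ccl5, Cd44, Cd8a, Ifit3, Klrc1, mt-Nd6, Oas1a, Oas2 and Usp18), without control mouse 1 for 8 (Anxa2, Cd44, Cd8a, Ifit3, Igkc, mt-Co1, Oas1a and Pdcd1) and without control mouse 2 for 16 (Acot7, Anxa2, Bcl2, Cd44, Cd8a, Dpf1, Ifit3, Igkc, Irf7, Klrc1, Mcm6, mt-Nd6, Oas1a, Oas2, Pdcd1 and Usp18). Fewer than 5 ended under any other setting. List medians depended on the scale. The largest shift of a list median was 3.06 with limma on log2(FPKM + 0.5), 1.39 with limma on log2(FPKM + 0.1) and 1.03 with the 5 CPM filter. Under the other settings it was at most 0.77. Counted over lists and settings, 6 medians with a main size of at least 0.1 changed sign.

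Genes that were not called changed sign as follows. Without control mouse 1, Dusp1 went from 0.13 to -0.06 (0.33 without mouse 2), Jun from 0.38 to -0.06 (0.83 without mouse 2), Jund from 0.10 to -0.08 (0.29) and Psmb9 from 0.00 to -0.17 (0.19). Without control mouse 2, Slc38a2 went from -0.09 to 0.05 (-0.22 without mouse 1) and Psmb10 from -0.02 to 0.09 (-0.13). Max went from -0.02 to 0.05 by library totals, 0.01 with the 5 CPM filter and 0.05 by limma with either pseudocount. Psmb10 likewise gave 0.04, 0.00 and 0.04, and Psmb8, at -0.06, gave 0.00 by library totals and by limma. Genes near the floor of 3 counts (0.0461 to 0.0521 CPM by unscaled totals) carry the widest errors.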
